A study of Mus musculus with 6 samples.

Results

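Keratins are the proteins of the intermediate filaments of epithelial cells, and the ones a mammary cell makes tell its layer. The 10 mammary keratin genes *Krt5*, *Krt14*, *Krt17*, *Krt15*, *Krt6a*, *Krt7*, *Krt8*, *Krt18*, *Krt19* and *Krt23* were followed here in 6 RNA-Seq samples. They were chosen by gene symbol, 5 for the basal and 5 for the luminal layer, and they are 10 of 53912 loci in the counts, which also list 44 other keratin symbols. For each gene, the row that carries the symbol was taken, together with the sum of all rows of the same locus, called the locus sum. All 10 had a row with the symbol, and their loci held 16 rows.

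There were 3 *fat-1* samples and 3 wild-type (WT) samples. The *fat-1* mice carry the *fat-1* gene of *Caenorhabditis elegans*, an *n*-3 desaturase that makes *n*-3 from *n*-6 polyunsaturated fatty acids in the whole body, and the WT mice lack it. Both genotypes were female FVB/NJ mice of 6 to 8 weeks, in puberty, kept from the parents onward on a modified AIN93G diet with 10% fat by weight from safflower oil, which is 22% of the energy. Epithelial cells were released by enzyme from inguinal mammary glands without lymph nodes, no cell sorting is described, and each sample pools several mice. The *p*-values therefore measure the spread between these 6 pools. Each sample held 204539059 to 232148824 counts, so 3 counts, the limit that a count of 0 allows, correspond to 0.0129 to 0.0147 CPM (counts per 1000000 counted in the sample).

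A keratin filament is built from pairs of a type I (acidic) and a type II (basic) keratin, so the genes of a pair are usually made together. *Krt8* with *Krt18* is the pair of luminal cells, which line the duct, and *Krt5* with *Krt14* is the pair of basal (myoepithelial) cells, which contract and lie on the basement membrane. *Krt7* and *Krt19* are further keratins of simple epithelium, *Krt15*, *Krt17* and *Krt6a* are known from basal, stressed or progenitor epithelium, and *Krt23* is a less studied type I keratin. In GRCm38 the type II genes *Krt5*, *Krt6a*, *Krt7* and *Krt8* lie on chromosome 15, and the type I genes *Krt14*, *Krt15*, *Krt17*, *Krt19* and *Krt23* on chromosome 11. *Krt18* is the exception, a type I gene on chromosome 15 from 102028180 to 102032027 on the plus strand, beside its partner *Krt8* from 101996698 to 102004482 on the minus strand. *Krt5* spans 101707070 to 101712898 on chromosome 15, and *Krt14* spans 100203162 to 100207548 on chromosome 11, both on the minus strand.

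Promoter sequences of 6 of the 10 genes were matched in the RefSeq table (GRCm38.p6), those of *Krt5*, *Krt7*, *Krt8*, *Krt14*, *Krt18* and *Krt23*. Those of *Krt5*, *Krt8* and *Krt18* are shown, genes that were high and low in nearly the same samples. *Krt7* and *Krt14*, whose windows are not printed, were high and low in nearly the same samples too. Whether the promoter sequences bear on this order was not tested. Each runs 5′ to 3′ on the strand of the gene from 90 bases before to 10 bases after the RefSeq start, and capitals mark matches of TATAAA or ATAAAA on either strand.
*Krt5*, chr15:101712896-101712995, minus strand: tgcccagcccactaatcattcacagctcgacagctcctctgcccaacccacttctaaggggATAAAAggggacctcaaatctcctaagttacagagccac
*Krt8*, chr15:102004333-102004432, minus strand: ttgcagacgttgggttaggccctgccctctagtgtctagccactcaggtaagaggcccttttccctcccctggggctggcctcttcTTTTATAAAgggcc
*Krt18*, chr15:102028126-102028225, plus strand: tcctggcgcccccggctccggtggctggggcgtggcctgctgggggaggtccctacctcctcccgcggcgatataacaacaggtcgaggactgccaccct
ATAAAA was found in the windows of *Krt5*, *Krt7*, *Krt8* and *Krt23*, 4 of 6, and in 6.81% of 32851 windows of this length. TATAAA was found only in that of *Krt8* among the 6, where it overlaps ATAAAA, and in 5.43% of all windows. The *Krt18* window held neither, nor GGGCGG, which 24.6% of all windows hold on either strand and which among the 6 was found only in the *Krt7* window. The RefSeq starts of *Krt5* and *Krt18* lie 7 and 36 bases from the GENCODE gene starts, and that of *Krt8* 140 bases. Those of *Krt23*, *Krt7* and *Krt14* lie 17, 1360 and 1518 bases from them.

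Some keratins share sequence, which can affect which gene a read is counted for. Of the 100-base stretches of the transcripts, 30.6% of those of *Krt6a* also occur in another gene, mostly *Krt6b*, and 16.9% of those of *Krt8*, all in the pseudogene *Krt8-ps*. The shares were 2.78% for *Krt14* (with *Krt16*) and 2.38% for *Krt5* (mostly with *Krt6a*), and 0 for *Krt7*, *Krt15*, *Krt17*, *Krt18*, *Krt19* and *Krt23*. The longest run common to *Krt14* and *Krt16*, which the authors' assembly placed in the same locus, has 134 bases and lies in the coding part of exon 1 of the 8 exons of *Krt14*. It is shown because reads that lie wholly within it could be counted for either gene. How many reads this touched was not tested.
*Krt14* and *Krt16*, chr11:100207017-100207150, minus strand: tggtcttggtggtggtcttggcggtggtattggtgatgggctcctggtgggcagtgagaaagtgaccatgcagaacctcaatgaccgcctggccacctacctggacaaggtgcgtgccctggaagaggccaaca
The *Krt16* row had 1.04 to 6.49 CPM, *Krt6b* 0.206 to 1.38 CPM and *Krt8-ps* 1.39 to 5.09 CPM. In each sample these rows were lower than those of *Krt14*, *Krt6a* and *Krt8*, the keratins they share sequence with. Because of the large shared part, how reads were divided between *Krt6a* and *Krt6b* is uncertain.

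The luminal pair was the most abundant. Taking samples 1 to 3 in order, the *Krt8* locus sum was 899, 210 and 344 CPM for *fat-1* against 645, 397 and 221 CPM for WT. That of its partner *Krt18* was 908, 193 and 316 CPM for *fat-1* against 645, 365 and 197 CPM for WT. *Krt7*, a type II keratin of ductal epithelium, had 441, 89.6 and 151 CPM in *fat-1* and 339, 155 and 97.9 CPM in WT. In each of these genes sample 1 was the highest of its genotype, *fat-1* sample 2 and WT sample 3 were the lowest, and the genotypes overlapped. *Krt19*, a type I keratin without a tail domain, had 230, 56.1 and 147 CPM in *fat-1* and 313, 207 and 64.0 CPM in WT. For *Krt19* the highest value was in WT sample 1 rather than *fat-1* sample 1, and the lowest pair of samples was unchanged. *Krt23* was low, with 2.49, 1.11 and 2.13 CPM in *fat-1* and 3.11, 1.97 and 1.26 CPM in WT, and the genotypes overlapped again.

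The basal keratins showed a similar order of samples at a lower level. *Krt5* stood at 180, 33.8 and 67.6 CPM for *fat-1* against 111, 58.7 and 32.2 CPM for WT. The *Krt14* locus, which includes the *Krt16* row, had 119, 22.1 and 50.6 CPM in *fat-1* and 81.0, 44.3 and 24.0 CPM in WT. *Krt17*, a keratin of basal and injured epithelium, had 72.1, 16.0 and 37.3 CPM in *fat-1* and 64.4, 27.8 and 14.1 CPM in WT. Sample 1 was again the highest of each genotype, with *fat-1* sample 2 or WT sample 3 the lowest of all. *Krt6a*, which is induced in stressed epithelium, had 9.37, 2.38 and 5.08 CPM in *fat-1* and 8.25, 5.61 and 4.17 CPM in WT. *Krt15*, a keratin of basal progenitor cells, was the scarcest member, with 63, 13 and 68 counts in *fat-1* and 92, 96 and 38 counts in WT, or 0.0606 to 0.430 CPM. All counts of *Krt15* were above the limit of 3, and the highest sample had 7.10-fold the CPM of the lowest.

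**Figure D1:**
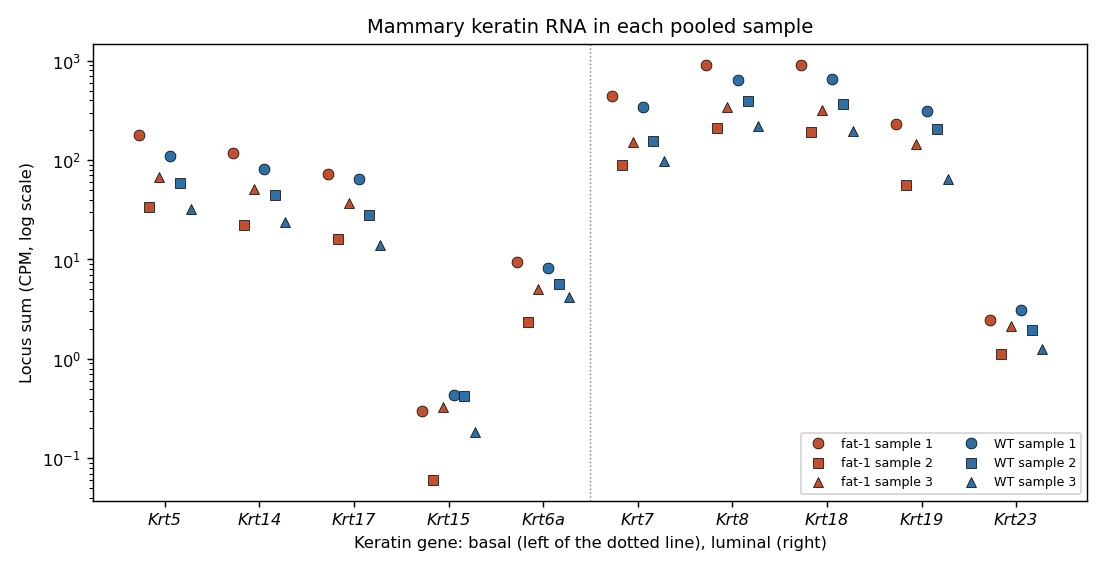
Locus sums of the 10 keratin genes (CPM, log axis) in each of the 3 *fat-1* (red) and 3 WT (blue) samples, with the basal genes to the left of the dotted line. The points of both genotypes overlap for every gene, and *fat-1* sample 1 and WT sample 1 lie above the other samples of their genotype for all genes but *Krt15*.

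Levels of different genes were compared per kilobase of exon, as the mean CPM per kilobase over the 6 samples. *Krt18* led with 305, followed by *Krt8* with 231 and *Krt19* with 91.3 CPM per kilobase. *Krt5* with 36.6, *Krt14* with 32.3, *Krt7* with 30.1 and *Krt17* with 24.9 CPM per kilobase came next. *Krt6a* with 2.40, *Krt23* with 1.29 and *Krt15* with 0.163 CPM per kilobase were far lower. The ranges of neighbours in this order overlapped across samples, except between *Krt17* and *Krt6a* and between *Krt23* and *Krt15*. Within a sample the order was the same in 6 of 6 samples for all neighbours except *Krt14* over *Krt7*, in 3 of 6, and *Krt7* over *Krt17*, in 5 of 6. The place of *Krt7* depends on the length used, since its exons together span 7049 bases. Its 2 coding transcripts have 642 and 4094 bases, so their median of 2368 bases is the length of neither. With the median coding length of each gene, *Krt7* had 89.6 CPM per kilobase and ranked 4 in place of 6.

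Of all counts in the 10 loci, the 5 luminal keratins held 85.6% to 89.2% and the 5 basal keratins 10.8% to 14.4%. *Krt8* held 29.2% to 33.6%, *Krt18* 28.2% to 31.7%, and *Krt19* varied the most of the abundant ones, from 8.03% to 16.4%. *Krt5* held 6.28%, 5.42% and 6.03% for *fat-1* against 5.004%, 4.65% and 4.92% for WT. The *fat-1* shares of *Krt5* lay above the WT shares without overlap, which is named after its values were seen. The shares of all other keratins overlapped. In CPM *Krt5* overlapped too, where 4.15% of all loci tested did not, but CPM and shares within the keratins are unlike measures. The exact permutation *p*-value (two-sided) of this difference was 0.1, the smallest that 3 against 3 samples allow, and 0.714 adjusted over the 10 genes. Shares within a sum are tied to each other, so a higher share of *Krt5* need not be a higher level.

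To ask whether the keratins differed between *fat-1* and WT mice, edgeR's quasi-likelihood test was run over all loci with Benjamini–Hochberg adjustment. Of the 10 keratin loci, 0 passed an adjusted *p*-value of 0.05, beside 0.0% of the 24061 loci tested. At an unadjusted *p*-value of 0.05, 0 of 10 keratins passed, beside 274 loci, which is 1.14%. DESeq2 called 8 loci (0.0332%) and edgeR's exact test 6 (0.0249%) after adjustment, with 0 keratins among them. Unadjusted, they called 359 (1.49%) and 257 (1.07%), again with 0 keratins. The genotypes overlapped for 10 of 10 keratin loci, where 4.15% of all loci did not overlap. Adjusted *p*-values were 1.00 for each keratin.

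The luminal keratins did not share a sign. *Krt8* had 484 ± 365 CPM (SD, *n* = 3) in *fat-1* and 421 ± 213 CPM in WT, and the log2 fold change was 0.20 (standard error 0.61, 95% interval −1.26 to 1.67). *Krt18* had 473 ± 382 CPM in *fat-1* and 403 ± 226 CPM in WT, and its log2 fold change was 0.23 (standard error 0.66, interval −1.36 to 1.82). For *Krt7* it was 0.20 (standard error 0.69, interval −1.46 to 1.86). *Krt19* was below 0, at −0.43 (standard error 0.68, interval −2.07 to 1.20), from 144 ± 86.9 CPM in *fat-1* and 195 ± 125 CPM in WT. *Krt23* stood at −0.15 (standard error 0.42, interval −1.17 to 0.87). Each interval includes 0. Those of *Krt7*, *Krt8*, *Krt18* and *Krt19* also include a doubling and a halving, and that of *Krt23* a halving, so differences of that size were not excluded.

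Among the basal keratins, *Krt5* had the highest log2 fold change, 0.48 (standard error 0.69, interval −1.18 to 2.14), from 93.7 ± 76.4 CPM in *fat-1* and 67.2 ± 39.9 CPM in WT. The *Krt14* locus had 0.36 (standard error 0.67, interval −1.27 to 1.99), and its row with the symbol, without *Krt16*, had 0.33. *Krt17* had 0.24 (standard error 0.70, interval −1.44 to 1.92). Below 0 were *Krt6a*, at −0.10 (standard error 0.51, interval −1.32 to 1.12), and *Krt15*, at −0.61 (standard error 0.60, interval −2.05 to 0.84). The smallest unadjusted *p*-value of a member was that of *Krt15*, 0.346.

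In all, 6 of 10 keratin loci had a log2 fold change above 0, where 50.6% of all loci did, with a median of 0.20 beside 0.00183 over all loci tested. The direction rested on single pools. Without *fat-1* sample 1 the log2 fold change was below 0 for all 10 keratins, with a median of −0.62, and without WT sample 3 the median was −0.13. Without WT sample 1 the median was 0.70, and *Krt15* alone stayed below 0.

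**Figure D2:**
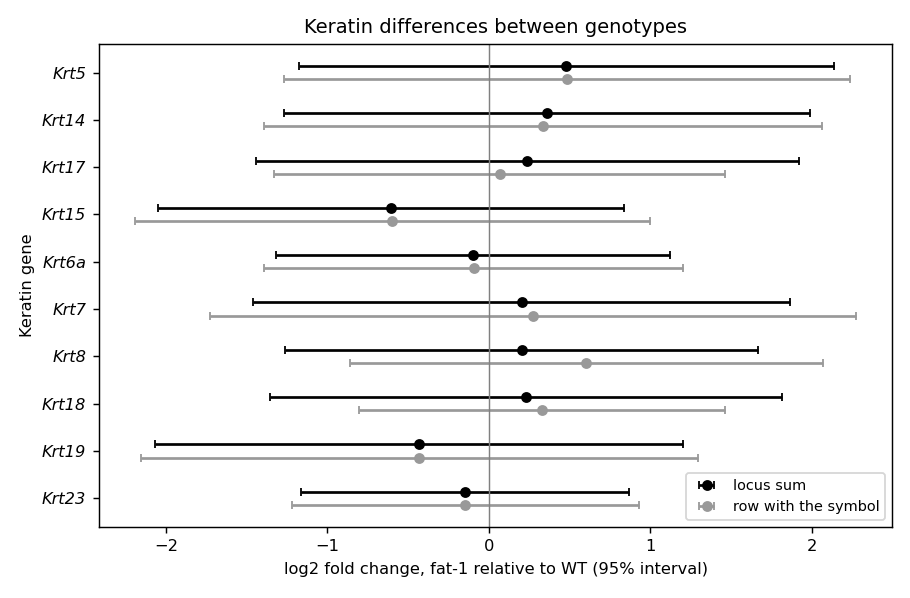
Log2 fold changes of *fat-1* relative to WT with 95% intervals from edgeR's quasi-likelihood fit (*n* = 3 per genotype), for locus sums (black) and for the rows with the symbol (grey). All 20 intervals cross 0, and the locus sums lie between −0.61 for *Krt15* and 0.48 for *Krt5*.

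A ratio of keratins within a sample is not scaled by its library size or, where both come from epithelium alone, by its epithelial share, so ratios were used to ask whether the balance of layers or partners differed. The ratio of the basal pair (*Krt5* and *Krt14*) to the luminal pair (*Krt8* and *Krt18*) was 0.165, 0.139 and 0.179 for *fat-1* against 0.148, 0.135 and 0.135 for WT. The ranges overlapped, and the log2 difference was 0.20 (pooled SD 0.15, exact permutation *p* = 0.2, two-sided, 0.800 adjusted over 8 ratios). These ratios are of counts not corrected for gene length, so they compare samples and not the levels of the genes. The ratio of the luminal partners, *Krt8* to *Krt18*, varied little between samples, from 0.990 to 1.12, a log2 difference of −0.018 and *p* = 0.7 by the exact permutation test. *Krt5* to *Krt14* was 1.51, 1.53 and 1.33 in *fat-1* and 1.37, 1.32 and 1.35 in WT, with a log2 difference of 0.11 and an exact permutation *p* of 0.3. *Fat-1* samples 1 and 2 were above the others in this ratio, and *fat-1* sample 3 lay within the WT values.

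*Krt19* varied more than *Krt7* against the luminal pair. Its ratio to *Krt8* and *Krt18* together was 0.127, 0.139 and 0.222 in *fat-1* and 0.242, 0.272 and 0.153 in WT, a 2.14-fold span. The lowest values were those of *fat-1* samples 1 and 2 and WT sample 3, and the log2 difference of −0.45 had an exact permutation *p* of 0.2 (0.800 adjusted over 8 ratios). *Krt7* relative to the luminal pair spanned only 0.203 to 0.263, with a log2 difference of −0.0047 (exact permutation *p* = 1). *Krt17* to *Krt14* had a log2 difference of 0.045 and an exact permutation *p* of 0.9. In 8 of 8 ratios the genotypes overlapped.

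**Figure D3:**
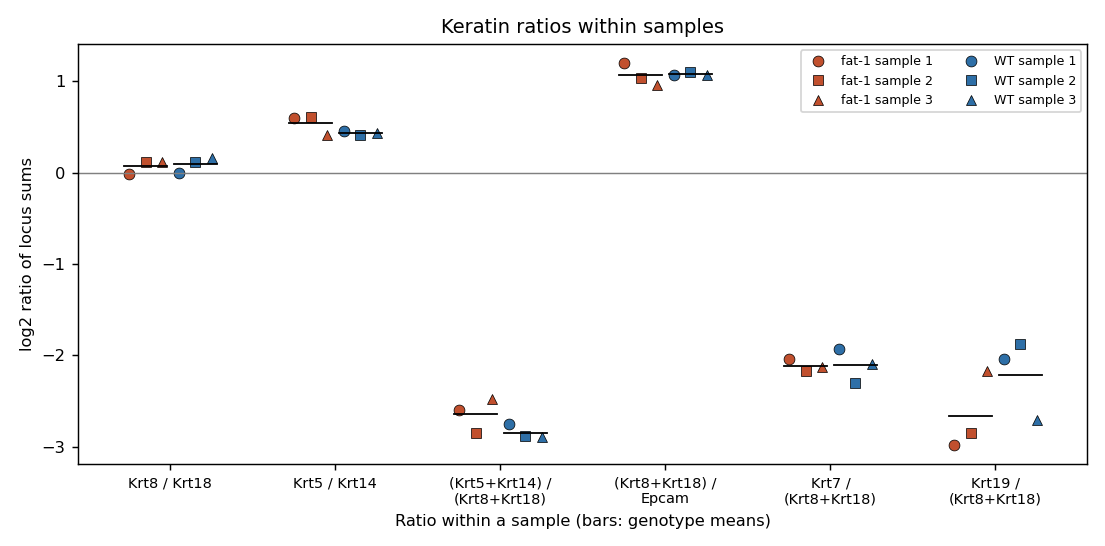
Log2 ratios of locus sums within each sample, with 1 point per sample (red *fat-1*, blue WT) and bars at the means of 3 samples. *Krt8* to *Krt18* stays near 0 in every sample, while *Krt19* to the luminal pair spreads 2.14-fold, and the genotypes overlap in each ratio.

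Across samples, the keratins moved together far more than they differed by genotype. The ratio of the highest to the lowest of the 6 samples was 4.28 for *Krt8*, 5.57 for *Krt5* and 2.81 for *Krt23*, the lowest of the 10. The median SD of log2(CPM + 1) within a genotype was 1.04 for the 9 keratins of at least 1 CPM, beside 0.174 over 14659 loci of at least 1 CPM. On the log2 scale *Krt8* followed *Krt18* over 6 samples with Pearson's r = 0.9995 (exact permutation *p* = 0.00139, adjusted 0.00417 over 6 relations). Spearman's rho of this pair was 1.00 (exact permutation *p* = 0.00278, adjusted 0.00833). *Krt5* followed *Krt14* with r = 0.995 (adjusted exact permutation *p* = 0.005, rho = 0.943 with an adjusted exact permutation *p* of 0.0167). The luminal pair followed the basal pair with r = 0.988 (adjusted exact permutation *p* = 0.005, rho = 0.943 with 0.0167). Without the 2 samples farthest from the median, these 3 values of r were 0.9995, 0.996 and 0.946. Taken as deviations from the mean of each genotype, they were 0.9995, 0.997 and 0.994.

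*Epcam*, an adhesion molecule of epithelial cells, had 787, 197 and 339 CPM in *fat-1* and 614, 356 and 199 CPM in WT, the same order of samples as the luminal pair. The luminal pair followed *Epcam* with r = 0.997 (adjusted exact permutation *p* = 0.00417, rho = 1.00 with 0.00833) and the basal pair with r = 0.993 (adjusted exact permutation *p* = 0.005, rho = 0.943 with 0.0167). Without the samples farthest from the median, *fat-1* sample 1 and WT sample 1, these were 0.992 and 0.979. *Ptprc* (CD45), a marker of leukocytes, went the other way, with 166, 407 and 274 CPM in *fat-1* and 157, 201 and 398 CPM in WT. Against the luminal pair its r was −0.944 (adjusted exact permutation *p* = 0.00972, rho = −0.943 with 0.0167), or −0.848 without *fat-1* sample 2 and WT sample 3. In these bulk samples, fewer epithelial cells and less keratin RNA per cell cannot be told apart.

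Relative to *Epcam*, the keratins were much more even. The SD within a genotype fell for 10 of 10 keratins, and its median went from 1.05 to 0.219 on the log2 scale. The luminal pair to *Epcam* was 2.29, 2.05 and 1.95 in *fat-1* and 2.10, 2.14 and 2.10 in WT, with a log2 difference of −0.014 and an exact permutation *p* of 0.8. With *Epcam* as a covariate in edgeR's fit, 0 of 10 keratins passed after adjustment, beside 0.0% of loci, and the median log2 fold change was −0.029. *Krt5* then had a log2 fold change of 0.22 and an unadjusted *p* of 0.0224 (adjusted *p* = 1.00), the only keratin under 0.05, beside 689 loci or 2.86%. The *Krt5* to *Epcam* ratio itself overlapped between genotypes, at 0.228, 0.172 and 0.200 in *fat-1* and 0.180, 0.165 and 0.162 in WT.

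**Figure D4:**
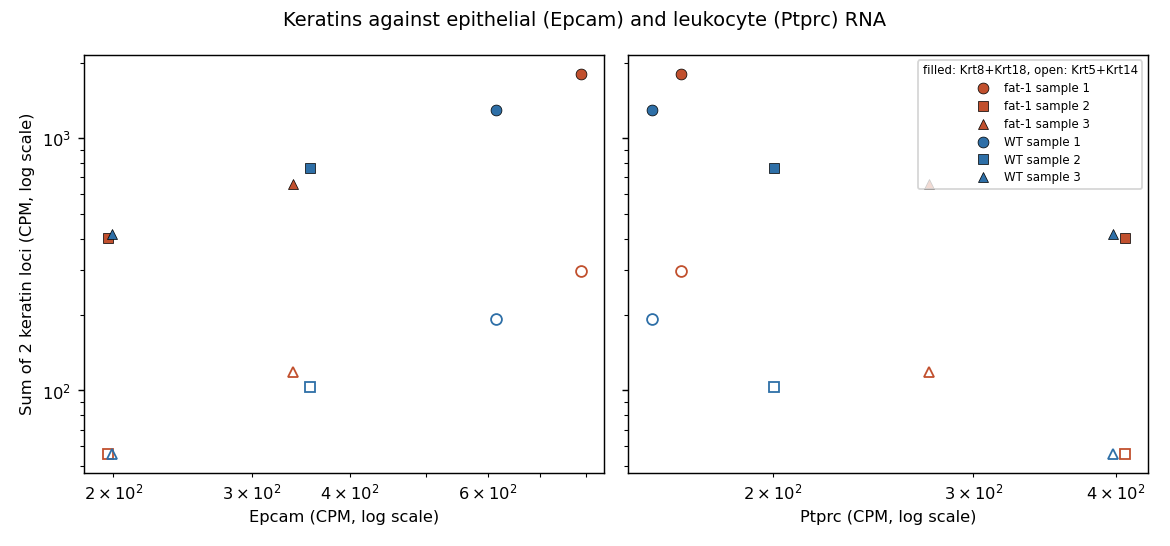
Sums of the luminal pair (filled) and the basal pair (open) against *Epcam* (left) and *Ptprc* (right), all in CPM on log axes, with 1 symbol per sample. Both pairs rise with *Epcam* (r of 0.997 and 0.993) and the luminal pair falls with *Ptprc* (r of −0.944), with *fat-1* and WT samples mixed along each line.

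Markers of other cells were also counted in these samples, labelled as mammary epithelial cells. The 12 immune markers summed to 1138 to 2516 CPM in *fat-1* and 1159 to 2559 CPM in WT, and were highest in *fat-1* sample 2 and WT sample 3, the samples lowest in keratins. This sum includes the *Cd79a* locus, which also holds *Arhgef1*, at 266 to 521 CPM. The 8 fibroblast markers summed to 1631 to 6269 CPM in *fat-1* and 3459 to 5829 CPM in WT, and *fat-1* sample 1, the highest in most keratins, had the lowest sum. The 6 endothelial markers summed to 176 to 225 CPM in *fat-1* and 195 to 246 CPM in WT, and the 6 adipocyte markers to 86.7 to 109 CPM and 115 to 131 CPM. Nearly all of the adipocyte sum was *Fabp4*, with 83.2 to 106 CPM in *fat-1* and 112 to 126 CPM in WT, values that did not overlap, as those of 4.15% of all loci did not. The endothelial markers *Cdh5*, *Tie1*, *Esam* and *Tek* did not overlap either and were lower in *fat-1*, while *Kdr* and *Pecam1* overlapped. *Cdh5* had 72.8 to 79.5 CPM in *fat-1* and 79.9 to 101 CPM in WT. Unadjusted *p*-values of these 4 in edgeR's quasi-likelihood test ran from 0.0509 (*Esam*) to 0.0933 (*Tie1*). Log2 fold changes were above 0 for 10 of 12 immune, 0 of 8 fibroblast, 1 of 6 endothelial and 3 of 6 adipocyte loci, and for 50.6% of all loci. Of the loci of these 4 lists, 0 passed after adjustment. *Fabp4*, a fatty acid carrier of adipocytes, was the only one under the unadjusted threshold of 0.05, with a log2 fold change of −0.31 and an adjusted *p* of 1.00 in the edgeR fit (unadjusted 0.0370). Markers of skin and hair keratinocytes were low but counted, with a sum of 2.13 to 4.51 CPM over 10 genes, 0 counts of *Krt2* in every sample, and only *Krt10* at a mean of 1 CPM or more. The part of these cells in the keratin values was not tested.

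The genes that work with keratins were followed as lists. Among 16 filament partners, the desmosome, hemidesmosome and linker proteins that hold keratin filaments to the cell edge, 14 had a log2 fold change above 0. Of all loci, 50.6% did. The median was 0.16 beside 0.00183 over all loci, and 0 partners passed. The 2 below 0 were *Dsc2* (−0.21) and *Pkp1* (−0.028). Desmoplakin (*Dsp*) had 0.18 (standard error 0.72), plakoglobin (*Jup*) 0.13 (standard error 0.57) and integrin β4 (*Itgb4*) 0.31 (standard error 0.62). Their summed level, 910 to 2152 CPM in *fat-1* and 876 to 1773 CPM in WT, had its highest values in sample 1 of each genotype, as most keratins did. Most of these loci had this order, so their signs are not independent. The sum includes the *Plec* locus, which also holds *Parp10* and had 352 CPM in WT sample 1 and 367 CPM in WT sample 2. Of 18 other luminal markers, 8 were above 0 and 0 passed (median −0.13), and of 12 other basal markers, 7 were above 0 and 0 passed (median 0.021). The *Prlr* locus of the luminal list also holds *Agxt2*, and the *Tagln* locus of the basal list also holds *Pafah1b2* and *Sidt2*. In the luminal list *Aldh1a3* was highest at 0.70 (standard error 0.88) and the alveolar regulator *Elf5* lowest at −0.67 (standard error 0.69). The claudin gene *Cldn4* had 0.35 (standard error 0.66). In the basal list *Col17a1* was highest at 0.29 (standard error 0.49) and *Oxtr* lowest at −0.76 (standard error 0.85). The basal regulator *Trp63* had −0.73 (standard error 0.75). Each of these values was within its error.

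The other keratins were scarce. Of their 43 loci, 8 had no count in any sample, 19 passed the filter on low counts, and 0 of these 19 were called. Of the 19, 11 had a log2 fold change above 0, beside 50.6% of all loci, and the median was 0.10. Together the 43 loci had 8.39 to 26.4 CPM, and only *Krt80*, *Krt87* and *Krt10* among them had a mean of at least 1 CPM. *Krt16* is not among these loci, because it was counted in the *Krt14* locus. The *Krt16* row had a mean of 3.10 CPM. *Krt80*, a type II keratin of many epithelia, had 14.1, 3.13 and 3.94 CPM in *fat-1* and 8.66, 4.56 and 3.23 CPM in WT, and its log2 fold change was 0.36 (standard error 0.66). Sample 1 was again the highest of each genotype, and its ratio to the luminal pair had a log2 difference of 0.072 (exact permutation *p* = 0.6). *Krt87*, a hair-type keratin next to *Krt7* on chromosome 15, was at 4.44, 0.639 and 1.28 CPM for *fat-1* against 2.30, 1.38 and 0.895 CPM for WT (log2 fold change 0.48, standard error 0.73). *Krt10*, a keratin of the upper epidermis, was at 2.78, 1.23 and 1.50 CPM for *fat-1* against 1.82, 1.51 and 1.67 CPM for WT (log2 fold change 0.14, standard error 0.33).

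How reads were split between the rows of a locus differed between samples, which touches 5 keratins. For *Krt8*, the row with the symbol held 72.7%, 86.4% and 66.2% of the locus in *fat-1* and 57.5%, 37.3% and 83.0% in WT. As a result, the log2 fold change was 0.60 (standard error 0.59) for the *Krt8* row alone, where the locus sum had 0.20. For *Krt18*, the row held 61.1%, 98.9% and 99.2% in *fat-1* and 64.6%, 64.2% and 99.2% in WT. The rest was in a row without a symbol, which held 74566, 454 and 510 counts in *fat-1* and 48950, 29620 and 322 counts in WT. *Krt17* was split likewise, with 69.6%, 99.9% and 65.7% in *fat-1* and 70.1%, 99.2% and 100% in WT. Its row without a symbol held 4614, 5 and 2658 counts in *fat-1* and 4119, 49 and 0 counts in WT. The *Krt7* share was between 67.4% and 99.2%, and the *Krt14* share, in a locus that also holds *Krt16*, between 85.9% and 89.8%.

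These shares overlapped between the genotypes for 5 of 5 loci, with adjusted exact permutation *p*-values of 1.00. The swing lay between samples of the same genotype, and it moved the ratio of the partners. From the rows alone, *Krt8* to *Krt18* had a log2 difference of 0.21 in place of −0.018, and the basal to luminal ratio −0.088 in place of 0.20. Over the rows with the symbol, edgeR's quasi-likelihood test called 0 of 10 keratins, beside 0.0% of 30683 rows (and 2.21% of rows at an unadjusted *p* of 0.05, with 0 keratins). DESeq2 called 93 rows (0.303%) and the exact test 32 (0.104%) after adjustment, and 928 (3.02%) and 614 (2.0%) before it, with 0 keratins in each. Of the 10 rows, 6 had a log2 fold change above 0, beside 51.2% of all rows, and 10 overlapped between genotypes, where 5.26% of all rows did not. The median of the 10 rows was 0.17, and between −0.48 and 0.63 with a sample left out.

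**Figure D5:**
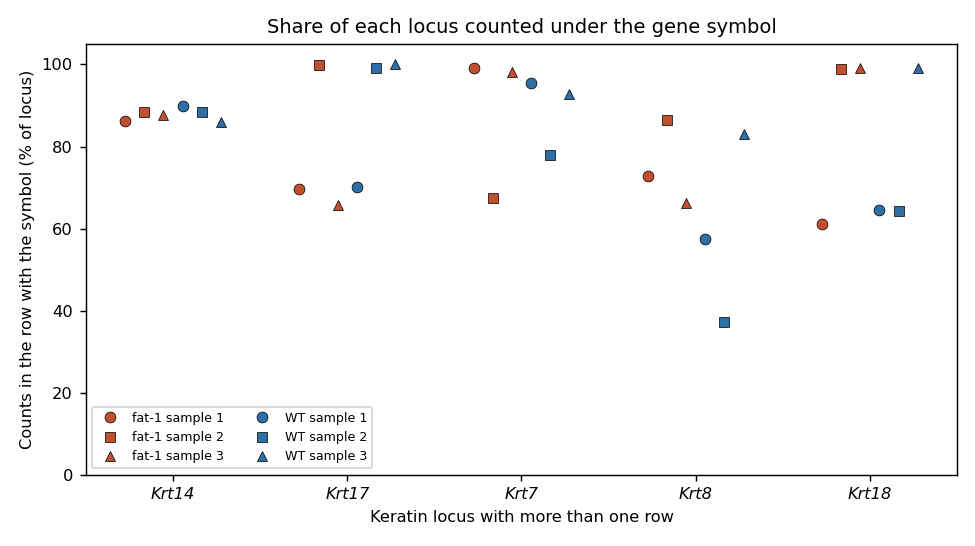
Share of the counts of each locus that is in the row with the gene symbol, in percent, for the 5 keratin loci with further rows, with 1 point per sample (red *fat-1*, blue WT). *Krt14* stays between 85.9% and 89.8%, while *Krt8* spreads from 37.3% to 86.4% and *Krt18* from 61.1% to 99.2%.

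The loci whose level across the 6 samples was most like that of the keratins were found by correlation with the mean z-score of the 9 keratins of at least 1 CPM, over 9393 loci of at least 10 CPM. The highest r was 0.9996, for the locus that holds *Fgfr2*, a receptor for fibroblast growth factors, together with *Ctbp2*, at 168.6 CPM in *fat-1* sample 1, 60.1 CPM in *fat-1* sample 2 and 63.6 CPM in WT sample 3. *Grb7*, a signalling adaptor, had r = 0.9991 and 9.42 to 49.7 CPM, followed by *Oplah*, *Klc3* and the tight junction gene *Ocln* (occludin), which had 8.76 to 40.1 CPM. *Epcam* ranked 59 with r = 0.995, and 905 loci had an r of at least 0.95. These correlations over 6 samples share the same order of pools and are given as a description.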

How the data were processed

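Total RNA of 6 pools of mammary epithelial cells (3 *fat-1*, 3 WT, grouped by the labels) was sequenced as paired-end 100-base reads. The authors aligned the reads by HISAT2 (GRCm38), used StringTie for assembly and quantification, and deposited whole-number counts per assembled gene row (61880 rows, 44496 with any count). The counting step and its strand setting are not given in the sources used here, so reads of overlapping and antisense genes cannot be told apart. The number of mice per pool is described differently in places.

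Rows with the same locus identifier were summed. Rows and loci were each tested with edgeR 4.0.16 (R 4.3.3; filterByExpr, TMM, glmQLFit, glmQLFTest, genotype only, Benjamini–Hochberg adjustment, threshold 0.05), and CPM use TMM-scaled library sizes. DESeq2 1.42.0, edgeR's exact test, an older fit, other scalings, no filter, *Epcam* as a covariate, a replicate block and each sample left out were the alternatives. Logarithms of CPM used a pseudocount of 1, and ratios none. Ratios, shares and relations were tested by exact permutation with numpy 2.4.6. The fits were tested on simulated counts. No replicate pair agreed within counting noise. Motifs, gene positions, exon lengths and 100-base stretches came from RefSeq (GRCm38.p6) and GENCODE. All members are named. Other keratins are named at a mean of at least 1 CPM, members of other lists by the smallest *p* under 0.05, and loci of similar pattern as the highest 5. *Dsp*, *Jup*, *Itgb4*, *Dsc2*, *Pkp1*, *Cldn4*, *Elf5*, *Aldh1a3*, *Trp63*, *Oxtr* and *Col17a1* were named after their values were seen. So were *Cdh5*, *Tie1*, *Esam*, *Tek*, *Kdr* and *Pecam1*. *Plec*, *Tagln*, *Prlr* and *Cd79a* are named because their loci hold other genes. The members and lists were chosen with earlier results of these data known. Intervals on counts of 0 cover counting error only.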

Additional observations from a re-analysis of the deposited data

How the results depend on the processing

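The count of called keratins was 0 under every alternative run, for locus sums and for rows, and no scaling, filter or test tool changed the sign of a keratin. With rows in place of locus sums, the log2 differences changed sign for 5 ratios, to −0.088 for basal to luminal, 0.21 for *Krt8* to *Krt18*, 0.28 for the luminal pair to *Epcam*, −0.22 for *Krt80* to the luminal pair and −0.15 for *Krt17* to *Krt14*. With *Epcam* as a covariate the locus sums of *Krt7*, *Krt8* and *Krt18* went to −0.034, −0.023 and −0.011 and the rows of *Krt17* and *Krt7* to −0.029 and −0.090. The cause was not tested. With each sample left out in turn, the log2 differences ranged from −0.065 to 0.027 for *Krt8* to *Krt18*, −0.080 to 0.038 for the luminal pair to *Epcam*, −0.10 to 0.084 for *Krt7* to the luminal pair, −0.018 to 0.20 for *Krt80* to the luminal pair and −0.043 to 0.17 for *Krt17* to *Krt14*. Basal to luminal went from 0.12 (without *fat-1* sample 3) to 0.31 (without *fat-1* sample 2), *Krt5* to *Krt14* from 0.078 (without *fat-1* sample 2) to 0.18 (without *fat-1* sample 3), and *Krt19* to the luminal pair from −0.70 (without *fat-1* sample 3 or WT sample 3) to −0.29 (without WT sample 2). The log2 fold changes of the locus sums then ranged from −0.40 to 1.04 for *Krt5*, −0.44 to 0.90 for *Krt14*, −0.40 to 1.00 for *Krt17*, −0.68 to 0.27 for *Krt6a*, −0.70 to 0.84 for *Krt7*, −0.59 to 0.65 for *Krt8*, −0.65 to 0.75 for *Krt18*, −0.94 to 0.089 for *Krt19* and −0.40 to 0.24 for *Krt23*. For the rows they were −0.40 to 1.05 for *Krt5*, −0.46 to 0.90 for *Krt14*, −0.51 to 0.54 for *Krt17*, −0.68 to 0.27 for *Krt6a*, −0.77 to 1.03 for *Krt7*, −0.19 to 1.10 for *Krt8*, −0.16 to 0.72 for *Krt18*, −0.94 to 0.089 for *Krt19* and −0.41 to 0.24 for *Krt23*. *Krt15* ranged from −0.96 to −0.15 for the locus sum and from −0.94 to −0.15 for the row, nearest to 0 without *fat-1* sample 2.

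Whether samples of the same number were handled together is not stated in the sources used here. Deviations of same-numbered samples correlated at 0.799, −0.164 and 0.132, and those of different-numbered samples at −0.783 to 0.789. These values cannot show whether same-numbered samples shared a batch. With a replicate block, 0 keratins were called, the median log2 fold change of the locus sums was 0.077, and the *Krt8* row had 0.48 with an unadjusted *p* of 0.0387. The block changed no call after adjustment. The fewest counts behind a keratin locus were 13, for *Krt15* in *fat-1* sample 2. The ratios to *Krt8* and *Krt18* of *Krt19*, *Krt7* and *Krt80*, the ratio of *Krt17* to *Krt14* and the medians over the keratins were chosen after seeing the data.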
